A study of Sus scrofa with 8 samples.

Results

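The cells analysed were PAX3+ dermomyotome progenitors of pig embryos, taken from single-cell libraries of somites and myotomes between embryonic day (E) 16 and E28. A barcode was counted among them (a "member") when it held at least 1 unique molecular identifier (UMI, the tag of 1 captured RNA molecule) of PAX3, at least 1 UMI of TCF15, MEOX1 or DMRT2, and none of SOX10, PAX6, MYF5, MYOD1 or MYOG. It also had to hold at least 200 detected genes, at most 30000 UMIs and at most 10% of its UMIs on the 13 mitochondrial genes. Of 90688 barcodes in 8 libraries, 82394 lay within these limits and 1139 met the rule (1.38%).

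Somites were dissected at E16, E18 and E21 and myotomes at E28, and the study asked how these tissues develop in 2 breeding groups. ZZ embryos were Tibetan pigs, and DZ embryos came from a cross of Duroc and Tibetan pigs whose mothers were also of the Tibetan breed. Each library pooled 5 embryos of 1 sow, and each stage had 1 ZZ library and 1 DZ library, sequenced from the 3' end of transcripts in droplets. The breed was therefore the only repeat of a stage, and p-values measure the spread between these libraries. The myotome label was tied to E28, and the software version that made the counts was tied to E16, so neither can be told apart from the stage.

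The somite is a segmental block of paraxial mesoderm that forms from presomitic mesoderm and first builds an epithelium. Its dorsal wall becomes the dermomyotome, an epithelial sheet marked by the paired box factor PAX3 and later also by PAX7, which gives rise to skeletal muscle, dorsal dermis and other cells, while the ventral part becomes the PAX1-expressing sclerotome that forms cartilage and bone. Cells that leave the dermomyotome for muscle switch on MYF5, MYOD1 and MYOG, and wnt, hedgehog, bone morphogenetic protein (BMP) and Notch signals from the neighbouring tissues pattern it.

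PAX3, a transcription factor of dermomyotome and migrating muscle precursors, lies on chromosome 15 from 124093803 to 124193041 in the pig genome Sscrofa11.1 (RefSeq annotation). TCF15, which encodes the basic helix-loop-helix factor of epithelial somites also called paraxis, lies on chromosome 17 from 34626682 to 34632881. MEOX1, a homeobox gene of early somites, lies on chromosome 12 from 19431397 to 19452430, and DMRT2, a dermomyotome factor, on chromosome 1 from 220745493 to 220799779. PAX7 lies on chromosome 6 from 77160827 to 77268626 and EN1 on chromosome 15 from 24402605 to 24408377.

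The members were chosen by their measured UMIs of the rule's genes, so the values of these genes are a description and were not tested. Of the 1139 members, 852 (74.8%) held MEOX1, 490 (43.0%) held DMRT2, 187 (16.4%) held TCF15 and 42 (3.69%) held all of these. The mix differed by stage. TCF15 was detected in 24.7% and 33.7% of members at E16 (ZZ first, then DZ, here and below), 14.7% and 14.5% at E18, 9.49% and 7.96% at E21, and 0 of 41 and 1 of 34 at E28. DMRT2 was detected in 31.5% and 26.5% of members at E16 and in 46.3% and 70.6% at E28, and MEOX1 in 85.4% and 80.6% at E16 and 56.1% and 47.1% at E28. Many members sat at the edge of the rule: 682 (59.9%) held exactly 1 PAX3 UMI, and 525 held exactly 1 UMI over TCF15, MEOX1 and DMRT2. The highest PAX3 count in a member was 10, in E18-DZ. Just outside the rule, 10502 barcodes met every condition but had no PAX3 UMI, 2076 lacked only TCF15, MEOX1 and DMRT2, and 633 were barred by MYF5 alone. SOX10 alone barred 34 barcodes, PAX6 29, MYOD1 29 and MYOG 9, while 39 failed only on the mitochondrial limit (27 of them in E16-ZZ) and 9 only on the limit of 30000 UMIs.

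**Figure D1:**
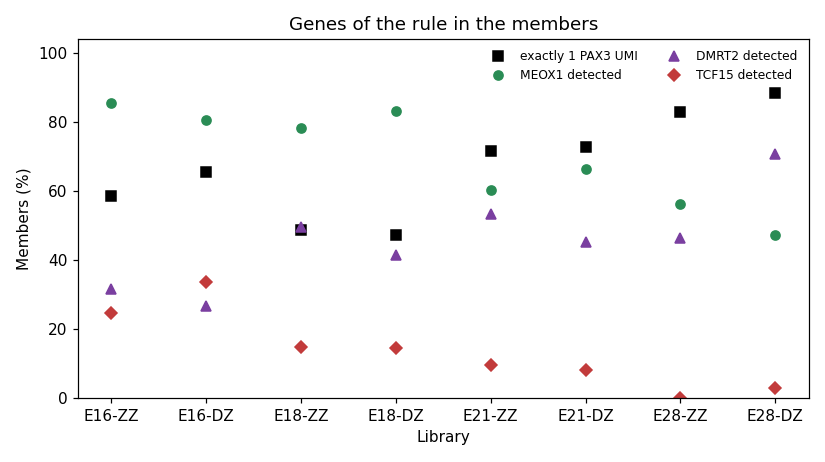
For each library (x axis), the percentage of members (y axis) with exactly 1 PAX3 UMI and with at least 1 UMI of MEOX1, DMRT2 or TCF15. TCF15 was in 24.7% and 33.7% of members at E16 and in 0% and 2.94% at E28, and members with a single PAX3 UMI made up 82.9% and 88.2% at E28, as a description of the rule's own genes.

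Endothelial barcodes, which should lack PAX3, gave the background for PAX3 and for the rule as a whole. Of 1350 barcodes with CDH5 and PECAM1, 14 held a PAX3 UMI (1.04%) and 2 met the rule (0.148%), although their median depth of 8587 to 13951 UMIs per library was above the 3784.5 to 7682 UMIs of the members. At least 1 UMI of TCF15, MEOX1 or DMRT2 was in 3.43% (E16-DZ) to 24.2% (E28-DZ) of endothelial barcodes per library. At E28 this share was 5.88% in ZZ and 24.2% in DZ. Members, which also lack the barred genes, made up 8.95% and 7.30% of the cells with a PAX3 UMI there. TCF15 was in 4.41% and 9.68% of the deeper endothelial barcodes at E28, against 0% and 2.94% of members. Endothelial rates of genes other than PAX3 can include expression by those cells, which was not tested. MEOX2, for instance, was in 42.6% and 50% of them at E28, against 41.5% and 32.4% of members. At E28 the label was backed in part. 34 of 41 and 30 of 34 members held 1 PAX3 UMI, TCF15 was seen in 1 member of both libraries, and matrix genes were also high in the PAX3-negative cells described below: LUM stood at 932 and 701 CPM (UMIs scaled to a common depth, defined below) against 1102 and 499, and OGN at 936 and 611 against 1186 and 1403. Of the dermomyotome regulators outside the rule, PAX7 was at 114 and 65.9 CPM against 10.9 and 6.89, EN1 at 236 and 186 against 74.2 and 37.8, and MSC at 109 and 47.9 against 11.4 and 15.5. Others overlapped with those cells or were below them, such as MEOX2 at 186 and 114 against 130 and 158, ZIC1 at 13.6 and 12.0 against 12.0 and 21.0, and EYA2 at 4.54 and 5.99 against 11.5 and 16.0. The member values of ZIC1 and EYA2 rest on at most 3 UMIs a library, the floor of detection used below, so their order is not resolved. MSC was detected in 7 of 41 and 4 of 34 members at E28 (17.1% and 11.8%), against 0% and 8.06% of endothelial barcodes, so in E28-DZ it was little above them. The E28 cells are called by the rule, and the comparisons of kinds of cell were also fitted without the E28 libraries.

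Markers of other cell types were summed over the members of each library. Neural tube genes reached at most 4.61 CPM and macrophage genes at most 5.69, and FOXD3, OLIG2, SOX21, TYROBP, NKX3-2, TBXT and MSGN1 had no UMI in any member. Other genes of the same lists did, such as NKX6-1 (14 UMIs over all members), TFAP2A (23), COL2A1 (1902) and MESP1 (183). The neural crest list stood at 685 to 1182 CPM, of which ERBB3 held 8400 of the UMIs. The epithelial list (5 genes, chiefly KRT8 and KRT18) stood at 819 to 1723 CPM at E16 and E18, 13.8 and 32.7 at E21, and 0 at E28, with 3 UMIs of CDH1 in all. The neuron list (7 genes, chiefly STMN2) stood at 18.5 to 74.5 CPM at E16 and E18 and 972 to 1828 later. Over all members STMN2 held 2387 UMIs, TUBB3 204, ELAVL4 77, DCX 50 and ELAVL3 12, with NHLH1 and POU4F1 at 0. E16-ZZ stood apart: 39.2% of its barcodes exceeded the mitochondrial limit against 1.05% to 9.15% elsewhere, and erythroid genes made up 6925 CPM in its members against 42.4 to 1544 elsewhere, although over all its barcodes they made up 6255 CPM against 4120.1 to 14918 elsewhere. Of the members, 27 shared their barcode sequence with a barcode of another library, none of them with another member. The part of these markers in the results below was not tested.

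Members were most frequent at E18 and least frequent at E28. They made up 1.41% (89 of 6297 barcodes, 95% exact binomial interval 1.14% to 1.74%) and 1.85% (196 of 10603, 1.60% to 2.12%) at E16, and 2.58% (266 of 10301, 2.28% to 2.91%) and 2.34% (242 of 10347, 2.06% to 2.65%) at E18. They made up 1.36% (158 of 11610, 1.16% to 1.59%) and 1.11% (113 of 10194, 0.914% to 1.33%) at E21, and 0.377% (41 of 10869, 0.271% to 0.511%) and 0.279% (34 of 12173, 0.194% to 0.390%) at E28. These intervals cover counting error only. The 4 early libraries (E16 and E18) averaged 2.05% ± 0.520 (SD) and the 4 late libraries (E21 and E28) 0.781% ± 0.535, and the ranges did not overlap (difference -1.26 percentage points, exact two-sided permutation p = 0.0286, the smallest p that 70 splits allow). These splits take the 8 libraries as exchangeable and keep neither stage nor breed together, so the p does not allow for libraries of 1 stage being alike. After thinning to 2000 UMIs, without the 216 to 1468 shallower barcodes of each library, the shares ran from 0.133% to 0.883%, the early and late ranges overlapped, and the difference of -0.320 points gave an exact permutation p = 0.143. With the mitochondrial limit at 5% the difference was -0.666 points (exact permutation p = 0.171). Of all cells with a PAX3 UMI, members made up 31.4% and 29.0% at E16, 25.3% and 22.3% at E18, 12.2% and 14.2% at E21, then 8.95% and 7.30% at E28.

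**Figure D2:**
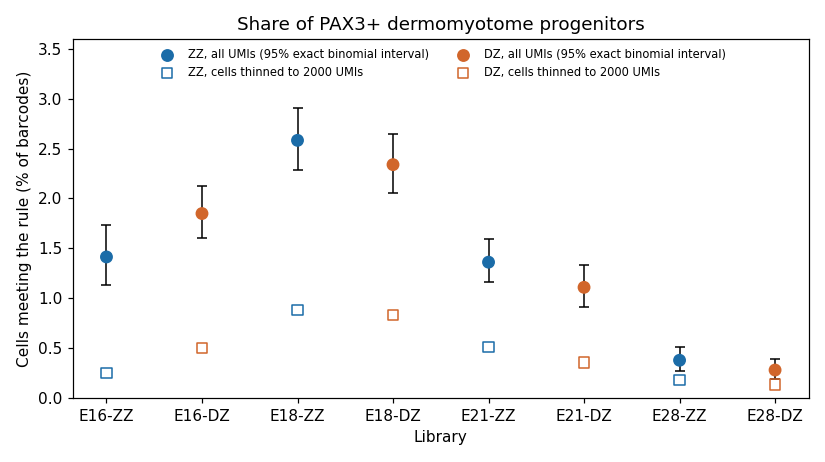
Percentage of barcodes within the limits that met the rule (y axis) in each library (x axis). Filled points are all UMIs with 95% exact binomial intervals and open squares are cells thinned to 2000 UMIs: the filled points peak at 2.58% in E18-ZZ and reach 0.279% in E28-DZ, and the squares lie between 0.133% and 0.883%.

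For expression, the UMIs of all members of a library were summed (141665 to 2140640 UMIs per library, 8229533 in all), and 8302 genes passed the filter on low counts. Levels are given as CPM, counts scaled to a common library size by TMM, and 3 UMIs, taken as the floor of detection, correspond to 1.401 to 4.27 CPM up to E21 but to 14.5 and 21.2 CPM at E28. Fold changes are on the log2 scale, given ± SE, and a gene was called when its adjusted p was under 0.05. Adjacent stage comparisons share a stage, so their values are not independent. A gene that passed the filter only through the stage where it was high could enter a step in that direction alone. With 2 libraries a stage, a gene that did not pass is not shown to be unchanged. The changes between adjacent stages are those of the members and were not tested against the same changes in other cells. Only the late against early change was compared with that of other cells, in the last test below.

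From E16 to E18 dermomyotome regulators rose in the members, and genes of the segmentation and glycolysis lists fell. In all, 147 of the 8302 genes rose (1.77%), and 1.87% fell. Of 13 dermomyotome regulators tested, 7 rose and none fell, with a median log2 fold change of 0.98 against 0.02 over all genes tested. Of 19 presomitic and segmentation genes, 6 passed the filter on low counts and 3 of these fell (median -1.34). DLL3 and RIPPLY1 among them passed it through E16, where they were high, so they could enter only as falls. Of 16 genes of the glycolysis list 8 fell and none rose (median -0.55). That list is wider than the glycolytic enzymes, and BNIP3 and PDK1, both among the 8, are not such enzymes. Markers of other cell types changed in the same step. EGFL7 and PLVAP of 3 endothelial genes, MYL4 and TNNT2 of 4 cardiac genes and CLDN6 of 3 epithelial genes fell, and STMN2 and TUBB3 of 4 neuron genes rose. None of these passed in every fit with 1 library left out, and their part in the other changes was not tested.

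PAX7, the other paired box factor of dermomyotome and later of muscle stem cells, was at 5.95 and 5.69 CPM at E16, 37.8 and 59.9 at E18, 55.6 and 72.3 at E21 and, at E28, 121 and 73.0. All later libraries lay above both E16 libraries, and PAX7 rose from E16 to E18 (3.09 ± 0.38, adjusted p = 2.99e-06). It was detected in 4 of 89 and 8 of 196 members at E16, in 61 of 266 and 58 of 242 at E18, in 37 of 158 and 32 of 113 at E21, and in 11 of 41 and 8 of 34 at E28. Endothelial barcodes held PAX7 in 0% to 5.00% of cases per library.

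Other regulators that rose were already detected at E16. SIX4, a homeobox factor of the myogenic programme, was at 10.4 and 14.9 CPM at E16 and 32.2 and 31.8 at E18 (1.34 ± 0.36, adjusted p = 0.0301 for E18 against E16). DACH1, a cofactor of the same network, was at 43.1 and 28.4 CPM at E16 and 57.4 and 76.6 at E18 (0.98 ± 0.25, adjusted p = 0.023). MEOX2, a homeobox gene of dermomyotome and limb muscle, was at 22.3 and 25.6 CPM at E16 and 41.1 and 58.9 at E18 (1.03 ± 0.28, adjusted p = 0.032). SIM1, a factor of the lateral dermomyotome, was at 8.93 and 3.55 CPM at E16, 25.2 and 38.0 at E18, 46.7 and 20.7 at E21 and, at E28, 4.83 and 13.3 (2.51 ± 0.47, adjusted p = 0.00204). In each of these the E18 libraries lay above both E16 libraries. PDGFRA, a growth factor receptor of dermal and other mesenchymal precursors, was at 19.3 and 19.9 CPM at E16, 46.2 and 46.4 at E18, 37.8 and 26.6 at E21 and, at E28, 203 and 159 (1.20 ± 0.27, adjusted p = 0.00895). MET, the receptor that migrating limb muscle precursors need, was at 8.93 and 10.7 CPM at E16, 21 and 43.8 at E18, 17.8 and 20.7 at E21 and, at E28, 9.67 and 6.64 (1.74 ± 0.37, adjusted p = 0.00469), while LBX1, which marks such precursors, was detected in 2 members in all. With 1 library left out, the call was lost for SIX4 without E16-ZZ, E16-DZ or E18-ZZ, DACH1, SIM1 and MET without E16-DZ or E18-DZ, and MEOX2 and PDGFRA without E16-ZZ, E16-DZ or E18-DZ. Their log2 fold changes in such fits lay from 0.48 to 3.21. The other settings ended the call for DACH1, MEOX2 and PDGFRA with DESeq2, SIX4, DACH1, MEOX2, PDGFRA and MET at a mitochondrial limit of 5%, SIX4, DACH1, MEOX2, PDGFRA and MET with at least 2 PAX3 UMIs required, and MEOX2 with marked doublets removed.

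Segmentation genes went the other way. DLL3, a Notch ligand of presomitic mesoderm, was at 75.9 and 43.4 CPM at E16, 4.67 and 5.21 at E18, 6.67 and 1.48 at E21 and, at E28, 4.83 and 0 (-3.55 ± 0.36, adjusted p = 2.26e-07). RIPPLY1, a repressor that sets the segment border, was at 32.7 and 16.4 CPM at E16, 2.80 and 0.521 at E18, 0 and 1.48 at E21 and, at E28, 0 and 0 (-3.79 ± 0.61, adjusted p = 0.000224). LFNG, a glycosyltransferase that modifies Notch, was at 71.4 and 27.0 CPM at E16 and 21 and 13.02 at E18 (-1.45 ± 0.30, adjusted p = 0.00345). NOTCH1, the receptor, was at 34.2 and 44.1 CPM at E16 and 19.1 and 13.02 at E18 (-1.35 ± 0.32, adjusted p = 0.013). The E16 libraries were the high ones in each. FGF18, a fibroblast growth factor, was at 26.8 and 26.3 CPM at E16 and 2.33 and 0.521 at E18 (-4.08 ± 0.57, adjusted p = 2.56e-05). GADD45G, a growth arrest and stress gene, was at 61.0 and 46.9 CPM at E16 and 4.2 and 5.73 at E18 (-3.36 ± 0.50, adjusted p = 0.0017). CITED1, a transcriptional cofactor, was at 62.5 and 40.5 CPM at E16 and 6.53 and 6.77 at E18 (-2.89 ± 0.34, adjusted p = 2.33e-06). Of the presomitic and segmentation list, TBXT, MSGN1 and HES7 had no UMI in any member. MESP1 held 183 UMIs over all members, MESP2 94, TBX6 40, CDX1 40 and CDX4 25. The whole list stood at 344 and 178 CPM in the E16 members, against 88.4 and 130 over all barcodes of those libraries. Leaving out 1 library ended the call for LFNG without E16-ZZ or E18-ZZ and NOTCH1 without E16-DZ or E18-DZ. Across these fits, their log2 fold changes lay from -1.80 to -0.82. Among the other settings, calls ended for RIPPLY1, LFNG, FGF18 and CITED1 at a mitochondrial limit of 5%.

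Other genes among those with the largest rises were of several kinds. C1QTNF3, a secreted C1q and tumour necrosis factor related protein, was at 5.95 and 0.711 CPM at E16, 58.8 and 33.3 at E18, 398 and 375 at E21 and, at E28, 159.5 and 93.0 (4.09 ± 0.44, adjusted p = 6.25e-07). PTX3, a secreted pentraxin, was at 7.44 and 3.55 CPM at E16, 63.0 and 90.6 at E18, 103 and 67.9 at E21 and, at E28, 198 and 359 (3.98 ± 0.41, adjusted p = 2.99e-06). BDNF, the brain-derived neurotrophic factor, was at 1.49 and 2.84 CPM at E16, 22.9 and 27.6 at E18, 51.1 and 56.1 at E21 and, at E28, 14.5 and 33.2 (3.38 ± 0.49, adjusted p = 5.07e-05). PRRX1, a homeobox gene of mesenchyme, was at 5.95 and 5.69 CPM at E16 and 48.5 and 42.7 at E18 (2.98 ± 0.35, adjusted p = 2.29e-06). CRABP1, a cytoplasmic retinoic acid binding protein, was at 53.6 and 82.5 CPM at E16, 379.9 and 453 at E18, 764 and 574 at E21 and, at E28, 1421 and 1368 (2.56 ± 0.21, adjusted p = 1.97e-09), and every later library was above both E16 libraries. PCDH17, a protocadherin, was at 14.9 and 20.6 CPM at E16 and 71.9 and 98.5 at E18 (2.23 ± 0.26, adjusted p = 2.29e-06). All of these passed in each fit with 1 library left out. Some calls ended under other settings, for BDNF at a mitochondrial limit of 5% and CRABP1 with at least 2 PAX3 UMIs required.

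Of the glycolysis genes, LDHA, which makes lactate, was at 955 and 836 CPM at E16, 501 and 277 at E18, 249 and 168 at E21 and, at E28, 145 and 99.6 (-1.26 ± 0.17, adjusted p = 1.09e-05). BNIP3, a mitophagy gene that responds to hypoxia, was at 546 and 563 CPM at E16, 284 and 182 at E18, 279 and 258 at E21 and, at E28, 247 and 146 (-1.29 ± 0.18, adjusted p = 1.60e-05). The E16 libraries were highest in both, and each passed in every fit with 1 library left out, while the other 6 (ENO1, HK1, PDK1, PFKL, PGAM1 and TPI1) did not. FN1, the matrix protein fibronectin, was at 379 and 725 CPM at E16, 118 and 89.6 at E18, 137 and 117 at E21 and, at E28, 739.7 and 764, so that it fell at E18 (-2.40 ± 0.27, adjusted p = 0.000374) and rose at E28 (2.56 ± 0.30, adjusted p = 0.000426, lost without either E28 library, with 2.32 to 2.76). COL1A1, the main fibrillar collagen chain, rose from 40.2 and 50.5 CPM at E16 to at most 188 CPM at E18 (1.82 ± 0.20, adjusted p = 7.32e-07), and stood at 228 and 239 CPM at E21 and 817 and 1175 at E28. Without E16-ZZ, the library with many barcodes over the mitochondrial limit and high erythroid UMIs in its members, 3 of the 7 regulators, 2 of the 3 segmentation genes and 7 of the 8 glycolysis genes still passed.

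Few signalling genes outside the Notch list passed at E18. GREM1, the BMP antagonist gremlin, was at 29.8 and 14.2 CPM at E16, 46.7 and 46.4 at E18, 28.9 and 19.2 at E21 and, at E28, 14.5 and 0 (1.19 ± 0.31, adjusted p = 0.025). MSX1, a homeobox target of BMP signals, was at 7.44 and 4.98 CPM at E16, 17.3 and 20.3 at E18, 20.01 and 10.3 at E21 and, at E28, 0 and 0 (1.64 ± 0.47, adjusted p = 0.0463), which made 2 of 15 BMP genes higher. CDON, a hedgehog co-receptor, was at 20.8 and 17.1 CPM at E16, 40.6 and 46.9 at E18, 41.1 and 44.3 at E21 and, at E28, 48.4 and 39.9 (1.25 ± 0.28, adjusted p = 0.00963) and was the 1 called gene of 8 in the hedgehog list. Of 16 wnt genes LRP6, a co-receptor, was the called one (1.32 ± 0.32, adjusted p = 0.0175), with a median of -0.04. Calls that ended when 1 library was left out were those of GREM1 and CDON without E16-DZ or E18-DZ and MSX1 and LRP6 without E16-ZZ, E16-DZ or E18-DZ. Across such fits their log2 fold changes ran from 0.71 to 2.08. The other settings ended the call for CDON and LRP6 with DESeq2, MSX1, CDON and LRP6 at a mitochondrial limit of 5%, MSX1 and LRP6 with at least 2 PAX3 UMIs required, and MSX1 with marked doublets removed.

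From E18 to E21 more genes passed the test than in the other stage steps (433 higher, 5.22%, and 236 lower, 2.84%). Of 16 matrix genes 9 rose and 1 fell (median 0.85 against 0.00 over all genes tested), of 13 dermomyotome regulators 4 rose (ALX4, EN1, MSC and ZIC1, median 0.13), and of 7 developmental timing genes 3 fell (median -0.90). The 4 regulators were low in the early libraries and passed the filter through later ones, so they could enter this step only as rises. Of 16 glycolysis genes 5 fell (median -0.45), none of which passed in every fit with 1 library left out. Of the other cell types, EGFL7 and PLVAP of 3 endothelial genes and MYH7 of 4 cardiac genes fell, and SCRG1 of 2 neural crest genes rose, all lost with 1 library or another left out.

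EN1, the engrailed homeobox gene of the central dermomyotome and its dermis, was at 0 and 1.42 CPM at E16, 2.80 and 0.521 at E18, 85.6 and 73.8 at E21 and, at E28, 251 and 206. It was at most 2.80 CPM in the 4 early libraries and rose at E21 (5.45 ± 0.40, adjusted p = 1.82e-11). EN1 was detected in 44 of 158 and 29 of 113 members at E21 (27.8% and 25.7%) and in 23 of 41 and 17 of 34 at E28, against 0% to 8.06% of endothelial barcodes per library. ALX4, a homeobox gene of dermal mesenchyme, was at 0 and 0.711 CPM at E16, 0.933 and 1.04 at E18, 21.1 and 11.8 at E21 and, at E28, 43.5 and 39.9. ZIC1, a zinc finger gene of the dorsal somite, was at 1.49 and 1.42 CPM at E16, 0.467 and 1.56 at E18, 17.8 and 11.8 at E21 and, at E28, 14.5 and 13.3. Both were called higher at E21, but the E18 libraries held at most 3 UMIs each, the floor, so no fold change is given. MSC, a basic helix-loop-helix factor of muscle precursors, was at 0 and 0 CPM at E16, 2.33 and 1.56 at E18, 15.6 and 14.8 at E21 and, at E28, 116 and 53.1 (2.87 ± 0.62, adjusted p = 0.00229). All 4 were above the floor of their library in both E21 libraries. PAX7 and PDGFRA did not pass this step (0.40 and -0.51). With 1 library left out, the call was lost for MSC without E18-ZZ or E21-DZ. Its log2 fold change in such fits lay from 2.50 to 3.42. Among the other settings, calls ended for MSC at a mitochondrial limit of 5%. ALX4 was lost without E21-ZZ and ZIC1 without E18-ZZ or E21-ZZ.

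Among the matrix genes, LUM, the keratan sulfate proteoglycan lumican, was at 7.44 and 3.55 CPM at E16, 7.93 and 8.34 at E18, 365 and 363 at E21 and, at E28, 991 and 777 (5.47 ± 0.23, adjusted p = 5.26e-17). DCN, the proteoglycan decorin, was at 11.9 and 19.9 CPM at E16, 21.5 and 18.8 at E18, 268 and 278 at E21 and, at E28, 449.6 and 445 (3.75 ± 0.21, adjusted p = 2.52e-14). COL6A1, a chain of collagen VI, was at 7.44 and 6.40 CPM at E16, 12.1 and 18.2 at E18, 99.0 and 76.8 at E21 and, at E28, 338 and 345 (2.55 ± 0.25, adjusted p = 2.52e-08). COL1A2 was at 98.2 and 150.7 CPM at E16, 277 and 268 at E18, 677 and 564 at E21 and, at E28, 2103 and 2099 (1.19 ± 0.18, adjusted p = 1.91e-05). COL3A1 was at 312 and 215 CPM at E16, 423 and 235 at E18, 855 and 1078 at E21 and, at E28, 1808 and 1899 (1.59 ± 0.23, adjusted p = 0.0003). The early libraries were the low ones in all of these. Of the 9, 7 (COL1A2, COL3A1, COL6A1, COL6A3, DCN, LUM and OGN) passed in each fit with 1 library left out, and COL1A1 and COL5A1 did not. MATN4, a matrilin, was at 1.49 and 2.13 CPM at E16, 0.933 and 0 at E18, 51.1 and 22.1 at E21 and, at E28, 53.2 and 46.5, and MFAP4, a microfibril protein, at 1.49 and 0 CPM at E16, 0 and 1.04 at E18, 37.8 and 34.0 at E21 and, at E28, 82.2 and 79.7. VCAM1, a cell adhesion molecule, was at 1.49 and 1.42 CPM at E16, 0 and 0 at E18, 30.0 and 28.04 at E21 and, at E28, 111 and 79.7. These 3 were called higher at E21, but the E18 libraries held at most 2 UMIs of each, so no fold change is given. Some calls ended under other settings, for COL3A1 with at least 2 PAX3 UMIs required.

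Some wnt genes rose as well. DKK2, a secreted modulator of wnt receptors, was at 0 and 2.84 CPM at E16, 0.933 and 3.12 at E18, 112 and 90.0 at E21 and, at E28, 435 and 452 (5.61 ± 0.37, adjusted p = 2.08e-12). TCF7L2, a nuclear effector of wnt signals, was at 32.7 and 22.0 CPM at E16, 32.7 and 28.1 at E18, 84.5 and 98.9 at E21 and, at E28, 116 and 193 (1.58 ± 0.24, adjusted p = 2.28e-05). WIF1, a secreted wnt inhibitor, was at 0 and 3.55 CPM at E16, 0 and 1.04 at E18, 10.01 and 10.3 at E21 and, at E28, 33.8 and 19.9 (called higher, with 2 UMIs in the E18 libraries and so no fold change), and RSPO3, a wnt agonist, at 52.1 and 41.2 CPM at E16, 23.3 and 37.5 at E18, 57.8 and 60.5 at E21 and, at E28, 271 and 292 (0.98 ± 0.25, adjusted p = 0.0106). Against them NKD1, an inhibitor of the pathway that wnt signals induce, was at 58.0 and 54.7 CPM at E16, 83.1 and 68.2 at E18, 53.4 and 34.0 at E21 and, at E28, 19.3 and 6.64 (-0.78 ± 0.23, adjusted p = 0.0295). So 4 of 16 wnt genes tested rose and 1 fell, with a median of 0.11. Leaving out 1 library ended the call for RSPO3 without E18-ZZ, E21-ZZ or E21-DZ and NKD1 without E18-ZZ, E18-DZ, E21-ZZ or E21-DZ. Across these fits, their log2 fold changes lay from 0.62 to 1.35 and from -1.03 to -0.63. The other settings ended the call for RSPO3 and NKD1 with DESeq2, RSPO3 at a mitochondrial limit of 5%, NKD1 with at least 2 PAX3 UMIs required, and NKD1 with marked doublets removed. WIF1 was lost without E18-ZZ or E21-ZZ and at a mitochondrial limit of 5%, and NKD1 turned to 0.05 when at least 2 PAX3 UMIs were required. In the BMP list ID2, a target gene, was at 166.6 and 146 CPM at E16, 168 and 166.7 at E18, 478 and 437 at E21 and, at E28, 551 and 598 (1.45 ± 0.16, adjusted p = 1.78e-07), while FST, the secreted antagonist follistatin, was at 177 and 252 CPM at E16, 196 and 126 at E18, 30.0 and 16.2 at E21 and, at E28, 102 and 119.5, a fall at E21 (-2.75 ± 0.30, adjusted p = 2.14e-06) followed by a rise at E28 (2.19 ± 0.42, adjusted p = 0.00404, lost without either E28 library, with 1.86 to 2.67).

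Of 12 genes of the epithelial somite 2 fell and 1 rose (median -0.33). PRTG, the adhesion protein protogenin of early mesoderm, was at 118 and 178 CPM at E16, 126 and 156 at E18, 12.2 and 16.2 at E21 and, at E28, 9.67 and 6.64 (-3.31 ± 0.26, adjusted p = 1.18e-10). ALDH1A2, the enzyme that makes retinoic acid in somites, was at 35.7 and 49.0 CPM at E16, 35.5 and 28.6 at E18, 5.56 and 2.95 at E21 and, at E28, 0 and 0 (-2.83 ± 0.47, adjusted p = 0.000101). CDH11, a mesenchymal cadherin of the same list, was at 16.4 and 32.7 CPM at E16, 19.6 and 13.5 at E18, 71.2 and 63.5 at E21 and, at E28, 184 and 173 (2.01 ± 0.28, adjusted p = 6.37e-06). KRT8, a keratin of simple epithelia, was at 662 and 1187 CPM at E16, 787 and 598 at E18, 11.12 and 28.04 at E21 and, at E28, 0 and 0 (-5.24 ± 0.48, adjusted p = 0.00197, lost without either E21 library, with -5.91 to -4.57). In the retinoic acid list CRABP2, a retinoic acid carrier, was at 1381 and 1366 CPM at E16, 1447 and 1462 at E18, 828 and 856 at E21 and, at E28, 580.2 and 624 (-0.79 ± 0.15, adjusted p = 0.000674, lost without E18-ZZ, with -0.82 to -0.78), and with CRABP1, DHRS3, RDH10 and STRA6 the list had 2 rises and 4 falls among 12 genes. Among the other settings, calls ended for ALDH1A2 with at least 2 PAX3 UMIs required.

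Muscle and neuronal genes also rose at E21 in cells chosen for having no MYF5, MYOD1 or MYOG UMI. TNNT1, slow troponin T, was at 11.9 and 13.5 CPM at E16, 18.7 and 56.8 at E18, 506 and 1036 at E21 and, at E28, 276 and 212 (4.38 ± 0.34, adjusted p = 4.74e-05). MEF2C, a muscle transcription factor, was at 5.95 and 5.69 CPM at E16, 8.40 and 5.73 at E18, 36.7 and 54.6 at E21 and, at E28, 24.2 and 13.3 (2.63 ± 0.37, adjusted p = 6.85e-06). With MYH3, embryonic myosin (1 and 2 UMIs at E18, under the floor), 3 of 7 muscle differentiation genes rose and none fell (median 1.13). All 14 genes of the list summed to 278 to 412 CPM in the early members and 565 to 1651 CPM in the late ones. Over all barcodes within the limits they summed to 422.5 to 774 CPM early and 1744 to 4710 CPM late, above the members in every library. STMN2, a tubulin binding protein of growing neurons, was at 10.4 and 12.1 CPM at E16, 30.8 and 35.9 at E18, 1223 and 937 at E21 and, at E28, 1155 and 1687 (5.02 ± 0.22, adjusted p = 5.28e-17). PAX3-negative paraxial cells of the same libraries held STMN2 too, at 10.6 to 21.3 CPM in early libraries and 334 to 899 CPM in late ones. Of the other neuron genes, NHLH1 and POU4F1 were at 0 in members, while ELAVL4 held 77 UMIs and ELAVL3 12 over all members. TUBB3, a neuronal tubulin, was at 1.49 and 3.55 CPM at E16, 18.2 and 15.6 at E18, 109 and 44.3 at E21 and, at E28, 0 and 6.64 (2.15 ± 0.31, adjusted p = 9.88e-06), and with DCX, the doublecortin of migrating neurons, 3 of 4 neuron genes rose (median 2.03). The part of muscle or neuronal RNA from other cells in these values was not tested. Calls that ended when 1 library was left out were those of MYH3 without E18-DZ, TUBB3 without E21-ZZ, and DCX without E18-ZZ, E18-DZ, E21-ZZ or E21-DZ. Across such fits their log2 fold changes ran from 1.30 to 4.40. It was further lost for TUBB3 and DCX with DESeq2, TNNT1, TUBB3 and DCX at a mitochondrial limit of 5%, and STMN2 and TUBB3 with at least 2 PAX3 UMIs required.

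FGF and Notch genes moved in part. ETV4, a transcription factor that fibroblast growth factor signals induce, was at 13.4 and 10.7 CPM at E16, 14 and 4.69 at E18, 41.1 and 39.9 at E21 and, at E28, 29.0 and 46.5 (2.09 ± 0.37, adjusted p = 0.000219), while FGF8, a ligand, was at 29.8 and 32.0 CPM at E16, 25.7 and 18.8 at E18, 3.34 and 4.43 at E21 and, at E28, 33.8 and 19.9. It was called lower at E21 (lost without E21-ZZ and at a mitochondrial limit of 5%) and higher again at E28 (lost without any 1 of the E21 and E28 libraries, with DESeq2 and at the 5% limit), with 3 UMIs in each E21 library and so no fold change. With SPRY1, a feedback inhibitor, higher and the receptor FGFR2 lower, 2 of 12 FGF genes rose and 2 fell. HEY1, a Notch target, was at 7.44 and 19.2 CPM at E16, 12.6 and 10.4 at E18, 16.7 and 62.0 at E21 and, at E28, 19.3 and 13.3 (1.61 ± 0.40, adjusted p = 0.00984). JAG1, a ligand, was at 19.3 and 14.9 CPM at E16, 11.2 and 17.2 at E18, 32.2 and 29.5 at E21 and, at E28, 4.83 and 13.3 (1.14 ± 0.35, adjusted p = 0.0363), 2 of 8 Notch genes. HHIP, a hedgehog inhibitor, was at 2.98 and 2.13 CPM at E16, 2.33 and 5.21 at E18, 16.7 and 31.0 at E21 and, at E28, 0 and 6.64 (2.63 ± 0.52, adjusted p = 0.000941). With 1 library left out, the call was lost for SPRY1 without E18-DZ, FGFR2, HEY1 and HHIP without E18-DZ or E21-DZ, and JAG1 without E18-ZZ, E18-DZ, E21-ZZ or E21-DZ. Their log2 fold changes in such fits lay from 0.61 to 2.82 and from -3.21 to -0.80. The other settings ended the call for FGFR2, HEY1 and JAG1 with DESeq2, FGFR2 and JAG1 at a mitochondrial limit of 5%, and ETV4 and JAG1 with at least 2 PAX3 UMIs required.

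Of the HOX genes, which mark position along the body axis, 5 of 22 rose at E21 and 1 fell (median 0.95). HOXA5 was at 53.6 and 51.9 CPM at E16, 60.2 and 43.8 at E18, 292 and 217 at E21 and, at E28, 479 and 498 (2.29 ± 0.19, adjusted p = 1.99e-10). At E18 1 rose and 1 fell, and at E28 HOXA5 alone rose (0.94 ± 0.19, adjusted p = 0.00301, lost without E21-DZ or E28-DZ, with 0.74 to 1.10). The position of the dissected somites along the axis and the stage cannot be told apart.

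Of the developmental timing genes, HMGA1, a chromatin protein of embryonic cells, was at 2105 and 2001 CPM at E16, 1649 and 1460.0 at E18, 885 and 779 at E21 and, at E28, 261 and 153 and fell at E21 (-0.90 ± 0.16, adjusted p = 0.000223) and at E28 (-1.99 ± 0.20, adjusted p = 7.60e-08). LIN28B, an RNA-binding protein that blocks let-7 maturation, was at 125 and 101 CPM at E16, 126 and 156 at E18, 45.6 and 59.0 at E21 and, at E28, 9.67 and 33.2 (-1.44 ± 0.22, adjusted p = 3.27e-05). The order of the stages was the same in ZZ and DZ for HMGA1, with no overlap between any 2 stages. Few cell cycle genes passed. The 36 genes of S phase summed to 4626 and 4086 CPM at E16, 3999.8 and 3694 at E18, 3142 and 3044 at E21 and, at E28, 2529 and 2079, lower at each later stage with no overlap. The 45 genes of G2 and M phase summed to 5759 to 6739 CPM at E16 and E18, 6603 and 4788 at E21 and, at E28, 3578 and 4655. From E21 to E28, 8 of 36 and 6 of 45 of these genes had a log2 fold change above 0 (medians -0.35 and -0.40). Of 36 genes of S phase 0, 2 and 1 fell at E18, E21 and E28, and none rose. Of 45 genes of G2 and M phase 1 rose at E18, 1 fell at E21 and 1 fell at E28. Against each of the 3 related kinds of cell described below, none of the 38 and 47 such genes tested passed. EGR1, an immediate-early gene, was at 124 and 132.9 CPM at E16, 34.1 and 47.9 at E18, 96.7 and 124 at E21 and, at E28, 213 and 518, lower at E18 (-1.63 ± 0.22, adjusted p = 1.09e-05) and higher at E21 (1.44 ± 0.23, adjusted p = 4.22e-05) and E28 (1.65 ± 0.24, adjusted p = 2.89e-05). It was the 1 called gene of 8 in its list at each step (medians -1.47, 1.55 and 1.49). The list summed to 5306 CPM in E28-DZ, against 957 in E28-ZZ and 207 to 1126 in the earlier libraries.

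Levels of PAX3-negative paraxial cells of the same libraries, defined below, moved alike for several of these genes, in values that were not tested by stage. These are cells without a detected PAX3 UMI, and some may express PAX3, which was not tested. DLL3 was there at 26.1 and 50.1 CPM at E16 and 3.29 and 0.778 at E18, and PRRX1 at 9.74 and 13.4 CPM at E16 and 55.5 and 48.0 at E18. C1QTNF3 was at 3.59 and 1.28 CPM at E16, 28.8 and 22.8 at E18 and 152 and 82.8 at E21, below the members at E18 and E21. PRTG was at 139 and 192 CPM at E16, 127 and 163 at E18 and 20.97 and 25.4 at E21. KRT8 was at 1885 and 1599 CPM at E16, 1420.0 and 901 at E18 and 46.5 and 41.7 at E21, and EN1 at 0.513 and 0 CPM at E16, 0.580 and 0 at E18 and 40.1 and 20.8 at E21. DLL3 at E18, and PRTG and KRT8 at E21, were thus at lower levels than a stage before in both kinds of cell, and EN1 was present in both at E21.

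**Figure D3:**
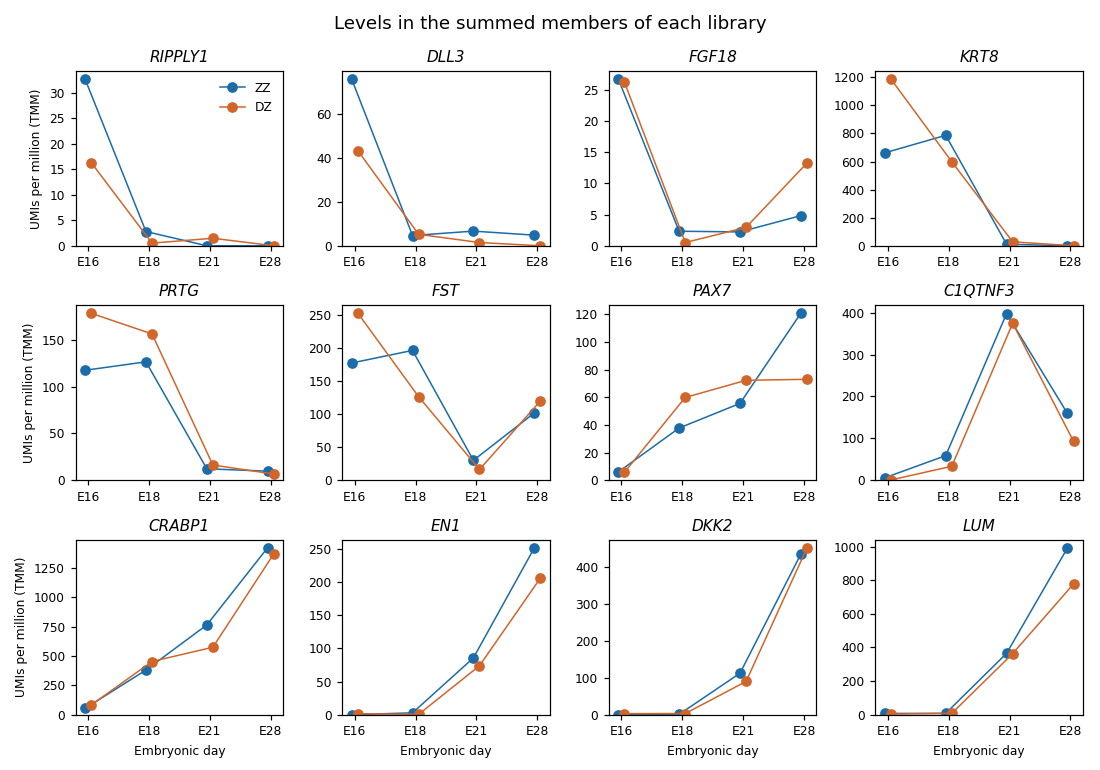
TMM-scaled UMI level (CPM) in the summed members (y axis, linear, each from 0) against embryonic day (x axis) for 12 genes, with ZZ in blue and DZ in orange. RIPPLY1, DLL3 and FGF18 are high at E16, KRT8, PRTG and FST through E18, PAX7 and CRABP1 rise from E18, C1QTNF3 peaks at 398 and 375 CPM at E21, and EN1, DKK2 and LUM rise from E21 on.

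From E21 to E28, 154 genes rose (1.85%) and 60 fell (0.723%). These values rest on the 41 and 34 members of the myotome libraries. Of 16 matrix genes 10 rose and none fell (median 1.10 against -0.05 over all genes tested), of 16 wnt genes 5 rose (median 0.60), and of 13 dermomyotome regulators 4 rose (EN1, MEOX2, MSC and PDGFRA, with a list median of 0.12). Of the other cell types, TUBB3 of 4 neuron genes was called lower, lost with 1 library or another left out. It held 0 and 1 UMIs in the E28 libraries, so no fold change is given.

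OGN, the matrix protein osteoglycin, was at 14.9 and 11.4 CPM at E16, 12.6 and 10.4 at E18, 40.0 and 32.5 at E21 and, at E28, 996 and 677 (4.53 ± 0.22, adjusted p = 2.23e-15). The E28 libraries were far above the others, and OGN had already risen at E21 (1.64 ± 0.29, adjusted p = 0.000194). COL1A1 (2.06 ± 0.18, adjusted p = 2.68e-09), COL1A2 (1.76 ± 0.18, adjusted p = 9.56e-08) and LUM (1.28 ± 0.18, adjusted p = 1.41e-05) rose again. VCAN, the proteoglycan versican, was at 120.5 and 145 CPM at E16, 159 and 218 at E18, 143.4 and 115 at E21 and, at E28, 537 and 365 (1.81 ± 0.23, adjusted p = 2.81e-06). SPARC, a matrix glycoprotein, was at 89.3 and 114 CPM at E16, 101 and 86.0 at E18, 150.1 and 106 at E21 and, at E28, 445 and 472 (1.82 ± 0.21, adjusted p = 9.03e-07). Of the 10, 8 passed in each fit with 1 library left out, and COL3A1 and DCN did not. ASPN, the matrix protein asporin, was at 0 in all 6 earlier libraries and at 48.4 and 93.0 CPM at E28.

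Of the wnt genes, SFRP2, a secreted frizzled-related protein, was at 68.4 and 59.7 CPM at E16, 49.0 and 32.8 at E18, 24.5 and 35.4 at E21 and, at E28, 261 and 418 (3.50 ± 0.30, adjusted p = 2.68e-09). SFRP1 was at 244 and 258 CPM at E16, 257 and 272 at E18, 219 and 221 at E21 and, at E28, 658 and 1248 (2.06 ± 0.20, adjusted p = 3.87e-08). WNT11, a ligand, was at 7.44 and 1.42 CPM at E16, 4.67 and 7.81 at E18, 12.2 and 1.48 at E21 and, at E28, 126 and 86.3 (3.85 ± 0.56, adjusted p = 4.22e-05). RSPO3 (2.25 ± 0.26, adjusted p = 7.28e-07) and DKK2 (2.12 ± 0.23, adjusted p = 3.54e-07) rose again. All 5 passed in each fit with 1 library left out. Ligand, agonist and secreted inhibitors thus rose together, and no other wnt gene of the list passed. PDGFRA rose at E28 (2.48 ± 0.30, adjusted p = 1.38e-06), as did MEOX2 (2.09 ± 0.32, adjusted p = 8.00e-05), MSC (2.49 ± 0.50, adjusted p = 0.00254) and EN1 (1.52 ± 0.27, adjusted p = 0.00078). CREB5, a transcription factor, rose from 4.45 and 5.90 CPM at E21 to 87.0 and 132.8 at E28 (4.36 ± 0.58, adjusted p = 8.30e-06). DES, the muscle intermediate filament desmin, fell (-2.08 ± 0.40, adjusted p = 0.00171), at 116 and 121 CPM at E21 and 33.8 and 19.9 at E28. Leaving out 1 library ended the call for MEOX2 without E28-ZZ and MSC and EN1 without E21-ZZ or E28-ZZ. Across these fits, their log2 fold changes lay from 1.35 to 2.82.

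Between breeds, 0 genes were higher in DZ (0% of 8302) and 2 were lower (0.0241%), and none of the lists held a called gene in either direction. Without adjustment 443 genes had p under 0.05, and DESeq2 called none. GPX1, the antioxidant enzyme glutathione peroxidase 1, was the named one. It stood at 580.2 CPM in ZZ and 325 in DZ at E16, 461 and 270 at E18, 284 and 211 at E21, then 363 and 106 at E28 (-0.82 ± 0.14, adjusted p = 0.00972). ZZ was above DZ at every stage, and over the fits with 1 library left out the value lay from -0.96 to -0.69. The call was lost when DESeq2 was used, when the mitochondrial limit was 5%, and when 2 or more PAX3 UMIs were required. The other called gene had no symbol.

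The next 3 comparisons, inside the same libraries, asked where the members differed from related cells, with the library as a block. The comparison cells were 8769 PAX3-negative paraxial cells (TCF15, MEOX1 or DMRT2, no PAX3 and no PAX1), 7383 PAX1-positive cells without PAX3, and 3808 MYF5-positive cells without MYOD1 or MYOG, some of which also held PAX3, all without SOX10 and PAX6. The members entered all 3, so these comparisons share their samples, and genes used by a gate were left out of counts. Members were deeper than the PAX3-negative paraxial cells of the same library in 8 of 8 libraries (medians of 3784.5 to 7682 against 3640.5 to 6816 UMIs), and the part of depth in the gates was not tested. PAX3-negative means here that no PAX3 UMI was detected, which does not show that PAX3 was absent. Of the 1139 members, 682 held exactly 1 PAX3 UMI. After thinning, as for the shares above, 34.8% (E16-ZZ) to 56.25% (E28-DZ) of the members deep enough for it kept a PAX3 UMI. How many comparison cells express PAX3, and whether this differs between libraries, was not tested. Each fit scales its own libraries, so a member level can differ slightly between fits.

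Against the PAX3-negative paraxial cells, 146 genes were higher in members (1.31% of 11124) and 403 lower (3.62%). The dermomyotome regulators were higher: 6 of 14 passed in that direction and none in the other, with a median log2 fold change of 0.55 against -0.01 over all genes. PAX7 was at 5.77 to 114 CPM in the members and 1.60 to 18.9 in those cells (2.35 ± 0.23, adjusted p = 2.07e-05). EN1 (1.65 ± 0.16, adjusted p = 7.16e-10), SIM1 (1.45 ± 0.21, adjusted p = 6.81e-06) and MSC (1.92 ± 0.33, adjusted p = 0.000369) were higher too. EYA2, a transcriptional cofactor, was higher as well (0.80 ± 0.23, adjusted p = 0.0297). The PAX7 ranges met only through E16, where members held 5.97 and 5.77 CPM. Without the E28 libraries 4 of the 6 passed, and MSC was not among them. Calls that ended when 1 library was left out were those of EYA2 without E16-DZ, E18-ZZ, E18-DZ or E21-DZ. Across such fits its log2 fold change ran from 0.63 to 0.91. Among the other settings, calls ended for EYA2 with DESeq2, EYA2 at a mitochondrial limit of 5%, MSC with at least 2 PAX3 UMIs required, and MSC without the E28 libraries.

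Signalling genes of the lists differed in few places. CDON, a hedgehog co-receptor, was at 17.3 to 46.8 CPM in the members and 10.2 to 32.2 in those cells (0.97 ± 0.13, adjusted p = 5.69e-07). GREM1, the BMP antagonist gremlin, was at 0 to 46.9 CPM in the members and 4.02 to 13.5 in those cells (1.70 ± 0.18, adjusted p = 1.27e-09). MET was at 5.99 to 43.7 CPM in the members and 4.18 to 10.9 in those cells (1.42 ± 0.21, adjusted p = 4.49e-06). In 13 Notch genes and 15 FGF genes tested there was no call, and in 21 wnt genes WNT5B, a ligand, was lower (-1.503 ± 0.24, adjusted p = 1.30e-05). CDH15, the muscle cadherin M-cadherin, was higher (1.91 ± 0.29, adjusted p = 0.00922), and the median of 13 muscle differentiation genes was -0.70. MYL1, a fast myosin light chain, was called lower, with at most 2 UMIs in any library of members and so no fold change. NTN5, a netrin, was higher (1.88 ± 0.19, adjusted p = 0.000418). SOX9, the chondrogenic factor, was at 7.46 to 63.6 CPM in the members and 15.7 to 68.6 in those cells (-0.88 ± 0.13, adjusted p = 6.15e-06), and SNAI2, a repressor of epithelial genes, was lower (-1.24 ± 0.17, adjusted p = 7.80e-07). With 1 library left out, the call was lost for MYL1 without E18-DZ. It was further lost for CDH15 at a mitochondrial limit of 5% and SOX9 with at least 2 PAX3 UMIs required.

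Of the lists of other cell types, 6 held genes that were lower in members. All 8 endothelial genes were lower (median -1.82), as were all 4 epithelial genes tested, 2 of 5 lateral plate genes, 2 of 3 intermediate mesoderm genes, 2 of 4 cardiac genes and 2 of 5 chondrocyte genes. The neural crest, erythroid and neural tube lists held no called gene, and in the neuron list STMN2 was higher (0.95 ± 0.17, adjusted p = 0.0236) and none lower. Without the E28 libraries, 2 of the 4 epithelial genes still passed, and EPCAM alone passed in every fit with 1 library left out. Of the endothelial genes, TIE1 was lost without E16-DZ or E18-DZ. At a mitochondrial limit of 5% the calls of 5 endothelial genes and of all 4 epithelial genes were lost, and EGFL7 (0.13) and TIE1 (0.25) changed sign. PLVAP, an endothelial vesicle protein, was at 0 to 64.9 CPM in the members and 24.4 to 187 in those cells (-1.81 ± 0.11, adjusted p = 7.55e-14), and WT1, a factor of kidney and mesothelium, had -2.90 ± 0.22, adjusted p = 7.55e-14. In the members the endothelial list summed to 33.8 to 201 CPM, with 6 UMIs of CDH5 in all, and the part of such cells among the PAX3-negative cells in the other differences was not tested. Of 8 immediate-early genes 6 were lower, among them FOSB (-0.53 ± 0.09, adjusted p = 0.000177) and EGR1 (-0.35 ± 0.07, adjusted p = 0.00225). Leaving out 1 library ended the call for STMN2 without E18-ZZ, E18-DZ, E21-DZ or E28-ZZ. Across these fits, its log2 fold change lay from 0.82 to 1.01. The other settings ended the call for STMN2 and FOSB at a mitochondrial limit of 5%, STMN2 with at least 2 PAX3 UMIs required, STMN2 with marked doublets removed, and STMN2 without the E28 libraries.

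Against the PAX1-positive cells, 317 genes were higher (2.99% of 10609) and 378 lower (3.56%). Of 14 dermomyotome regulators 7 were higher and none lower (median 1.504 against 0.00), and without the E28 libraries ALX4 was lost. PAX7 was at 5.76 to 116 CPM in the members and 0 to 1.74 in those cells (5.91 ± 0.24, adjusted p = 2.24e-16), EN1 at 0 to 240.2 CPM in the members and 0 to 10.7 in those cells (4.53 ± 0.23, adjusted p = 4.51e-14) and SIM1 at 3.598 to 46.5 CPM in the members and 0.268 to 4.36 in those cells (3.199 ± 0.28, adjusted p = 3.12e-09). Sclerotome genes were lower: PAX9 was at 0 to 4.43 CPM in the members and 18.01 to 72.3 in those cells (-4.17 ± 0.26, adjusted p = 4.79e-12) and SOX9 at 7.49 to 64.7 CPM in the members and 26.7 to 179 in those cells (-2.24 ± 0.13, adjusted p = 5.64e-13), and 4 of the 6 genes were lower, MATN4 among them (median -2.01). All 5 chondrocyte genes tested were lower (median -1.78), among them SOX5 (-2.44 ± 0.27, adjusted p = 4.13e-07) and ACAN, the cartilage proteoglycan aggrecan. ACAN held at most 3 UMIs in any library of members, the floor, so no fold change is given. Of the 5, 3 passed without the E28 libraries, and ACAN, SOX5 and SOX6 passed in every fit with 1 library left out. CDH1 and EPCAM of the epithelial list, HAND1 of the lateral plate list and SCRG1 of the neural crest list were lower. STMN2 was higher (2.09 ± 0.28, adjusted p = 0.00395). Of the endothelial list 3 genes were lower, CLDN5 and PLVAP among them. All those named passed in every fit with 1 library left out, but CDH1 changed sign with DESeq2. Their part in the other differences was not tested. 

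Of 9 hedgehog genes 3 were lower in members and 2 higher. PTCH1, the receptor and a target of the pathway, was at 4.62 to 36.0 CPM in the members and 35.4 to 79.9 in those cells (-1.56 ± 0.13, adjusted p = 3.12e-09). GLI1, a transcriptional effector, was at 0 to 17.7 CPM in the members and 15.3 to 40.0 in those cells (-1.15 ± 0.19, adjusted p = 0.000287). Higher were the co-receptors: CDON was at 17.3 to 47.4 CPM in the members and 1.54 to 14.8 in those cells (2.47 ± 0.18, adjusted p = 2.30e-10) and BOC at 61.4 to 189 CPM in the members and 20.8 to 154.8 in those cells (1.23 ± 0.27, adjusted p = 0.0393). The other 4 of the 9 genes, SMO among them, did not pass. Of 21 wnt genes, NKD1 (1.25 ± 0.17, adjusted p = 0.0002), NOTUM, a secreted wnt deacylase (3.24 ± 0.58, adjusted p = 0.000465), and AXIN2, a feedback gene (0.77 ± 0.19, adjusted p = 0.0112), were higher and WNT5B lower. Of 21 BMP genes, the antagonists NOG (2.25 ± 0.48, adjusted p = 0.00283) and FST (1.07 ± 0.19, adjusted p = 0.0107) and the target MSX1 (1.21 ± 0.30, adjusted p = 0.0114) were higher, and BMPR1B and BMPER lower. HEY1, a Notch target, was higher (1.96 ± 0.37, adjusted p = 0.00454), with HEY2 and LFNG among 12 Notch genes. ALDH1A2 was lower (-1.14 ± 0.13, adjusted p = 6.33e-07). Calls that ended when 1 library was left out were those of BOC without any 1 of the libraries except E28-DZ, AXIN2 without E18-DZ or E21-ZZ, WNT5B without E21-ZZ, MSX1 without E18-ZZ, E18-DZ or E21-ZZ, BMPR1B without E16-ZZ, E18-ZZ or E18-DZ, BMPER without any 1 of the libraries except E16-DZ, E18-ZZ and E18-DZ, HEY2 without E18-ZZ, and LFNG without E16-ZZ. Across such fits their log2 fold changes ran from 0.58 to 1.60 and from -2.21 to -0.48. Among the other settings, calls ended for MSX1, BMPR1B and BMPER with DESeq2, BOC, WNT5B, FST, MSX1, BMPR1B, BMPER and LFNG at a mitochondrial limit of 5%, WNT5B, MSX1, BMPER, HEY1, HEY2 and LFNG with at least 2 PAX3 UMIs required, BMPER and LFNG with marked doublets removed, BOC without the filter on low counts, and WNT5B and BMPER without the E28 libraries.

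Against the MYF5-positive cells, 98 genes were higher (0.928% of 10555) and 246 lower (2.33%). Muscle differentiation genes not used by either gate were lower, 10 of 13 with a median of -3.23 and none higher. Genes of the cardiac list, of which skeletal muscle also expresses some, were lower too (MYH7, MYL4, TNNC1 and TNNT2, 4 of 4, median -3.00), as were GATA4, HAND1 and HAND2 of 4 lateral plate genes, with 1 gene each of the neural tube, epithelial and intermediate mesoderm lists. Of the cardiac genes MYH7 and TNNT2, and of the lateral plate genes none, passed in every fit with 1 library left out, and the part of such cells in the muscle differences was not tested. MYMK, the fusion protein myomaker, was at 0 to 11.7 CPM in the members and 5.04 to 148 in those cells (-4.91 ± 0.42, adjusted p = 8.93e-05). MYLPF, a fast myosin light chain, was at 0 to 80.0 CPM in the members and 25.2 to 543 in those cells (-4.82 ± 0.64, adjusted p = 0.00671). FGFR4, a receptor of muscle precursors, was lower (-2.03 ± 0.29, adjusted p = 1.13e-05) and CDKN1A, a cell cycle inhibitor, was lower as well (-4.33 ± 0.47, adjusted p = 4.15e-08). PAX7 did not pass (-0.28 ± 0.18, adjusted p = 0.622). EN1 was at 0 to 242 CPM in the members and 0 to 75.0 in those cells (1.501 ± 0.15, adjusted p = 1.51e-08), MEOX2 at 22.2 to 191 CPM in the members and 17.4 to 47.4 in those cells (0.99 ± 0.19, adjusted p = 0.00434) and DACH1 at 6.15 to 75.4 CPM in the members and 3.69 to 42.4 in those cells (0.79 ± 0.14, adjusted p = 0.000207). With ALX4 and SIM1 they made 5 of 14 regulators higher, and MSC was the 1 lower (-2.35 ± 0.44, adjusted p = 0.0458). THY1, a surface glycoprotein of mesenchymal cells, was higher (1.51 ± 0.21, adjusted p = 4.81e-06), and 5 of 17 glycolysis genes were lower (4 without the E28 libraries), of which LDHA alone (-0.49 ± 0.10, adjusted p = 0.00977) passed in every fit with 1 library left out. With 1 library left out, the call was lost for ALX4 without any 1 of the libraries except E16-ZZ, E18-ZZ and E18-DZ, SIM1 without E18-ZZ, E18-DZ or E21-ZZ, and MSC without any 1 of the libraries except E16-ZZ, E18-ZZ and E28-DZ. Their log2 fold changes in such fits lay from 0.64 to 2.44 and from -2.65 to -1.74. It was further lost for ALX4, SIM1 and MSC with DESeq2, SIM1 and MSC at a mitochondrial limit of 5%, EN1, MEOX2 and THY1 with at least 2 PAX3 UMIs required, MEOX2 and MSC with marked doublets removed, and ALX4 without the E28 libraries.

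**Figure D4:**
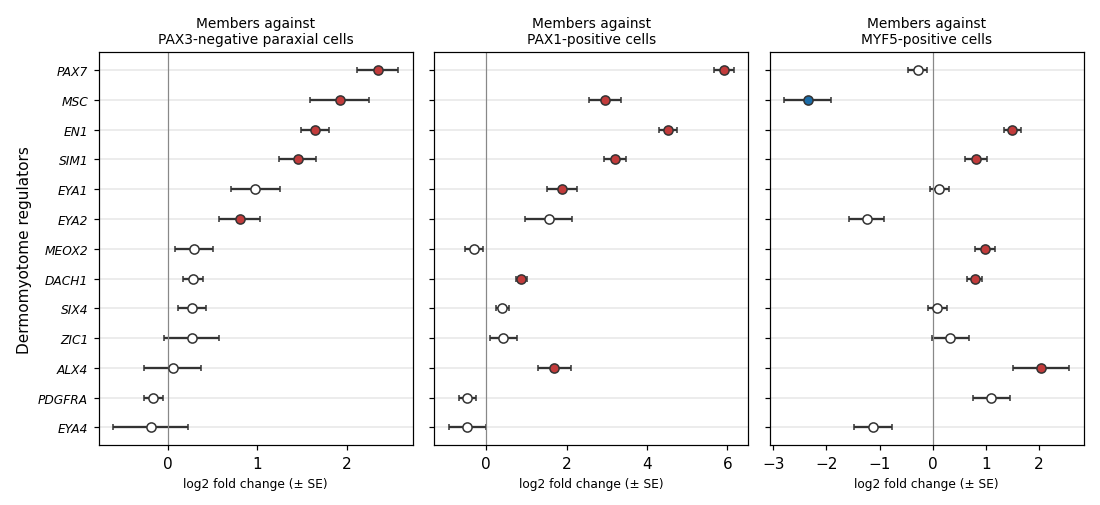
Log2 fold change ± SE (x axis, one scale per panel) of 13 of the 14 dermomyotome regulators (rows) in members against PAX3-negative paraxial, PAX1-positive and MYF5-positive cells. Filled points passed an adjusted p of 0.05 (red higher, blue lower): PAX7 is filled at 2.35 and 5.91 in the first 2 panels and open at -0.28 in the third, and EN1 is filled in all.

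Members with and without a PAX7 UMI were compared in the 4 libraries of E18 and E21 that held at least 20 of each. PAX7-detected members were deeper, with median UMIs of 7477 against 7024 and 8504.5 against 5490.5 at E18 and 5362 against 4974 and 6397.5 against 5672 at E21. Of 7239 genes 10 were higher (0.138%) and 9 lower (0.124%), 502 had an unadjusted p under 0.05, and DESeq2 called none. MT1X, a metallothionein, was at 24.1 to 222 CPM in PAX7-detected members and 7.59 to 74.5 in the others (1.44 ± 0.18, adjusted p = 8.08e-09). BOC was at 101 to 199.7 CPM in PAX7-detected members and 69.3 to 118 in the others (0.60 ± 0.14, adjusted p = 0.0258). TUBB3 was lower (-2.14 ± 0.34, adjusted p = 2.64e-05), and so was COL5A2, a collagen V chain (-1.12 ± 0.16, adjusted p = 6.43e-07). HBB, of the erythroid list, was called lower too, in every fit with 1 library left out but not with DESeq2. The part of such RNA in the other differences was not tested. None of the 10 dermomyotome regulators tested passed (median 0.11). Leaving out 1 library ended the call for MT1X without E18-DZ and BOC without E18-ZZ or E18-DZ. Across these fits, their log2 fold changes lay from 0.49 to 1.58. The other settings ended the call for MT1X, BOC, TUBB3 and COL5A2 with DESeq2, BOC and TUBB3 with at least 2 PAX3 UMIs required, and BOC and TUBB3 with marked doublets removed.

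Finally the difference between members and PAX3-negative paraxial cells was itself compared between late (E21 and E28) and early (E16 and E18) libraries, a test added after the data had been seen. 97 genes shifted towards members in late libraries (0.872% of 11124) and 69 away from them (0.62%). Such a shift is a change of the difference, and the level can have changed in either kind of cell. Of 13 muscle differentiation genes 5 shifted upwards and none downwards (median 2.64 against -0.03 over all genes), and of 13 Notch genes 3 did (HEY1, HEYL and JAG1; median 0.83). In the cardiac list none of 4 genes passed, but all 4 were above 0 (median 1.41), and TNNT2 stood at 19.5 to 134.5 CPM in the early comparison cells and 2.28 to 11.9 in the late ones. The part of these cells in the muscle shifts was not tested. TNNI1, a slow troponin, was lower in early members and near equality in late ones (-2.73 and 0.12, difference 2.85 ± 0.41, adjusted p = 4.21e-07). DKK2 averaged 1.74 CPM in early members and 6.46 in the early comparison cells, but 254 and 131 in late ones (difference 2.75 ± 0.36, adjusted p = 3.69e-08). RSPO3 shifted the same way (1.62 ± 0.19, adjusted p = 1.43e-08), while NKD1 (-1.06 ± 0.22, adjusted p = 0.00104) and SFRP2 (-0.81 ± 0.16, adjusted p = 0.000475) shifted downwards, so that 2 of 21 wnt genes moved each way (median -0.03). Of 9 hedgehog genes the inhibitor HHIP shifted upwards (2.73 ± 0.52, adjusted p = 0.000238) and 2 downwards, BOC among them (-1.24 ± 0.20, adjusted p = 0.000888). Downward shifts were also seen for UNCX, a homeobox gene of the posterior somite (-1.18 ± 0.22, adjusted p = 0.000147), and CRABP2 (-0.78 ± 0.07, adjusted p = 1.46e-10). Of 14 dermomyotome regulators 1 passed, MEOX2 (-0.86 ± 0.22, adjusted p = 0.0329). Calls that ended when 1 library was left out were those of TNNT1 without any 1 of the 8 libraries, MYH3 without E18-DZ or E21-DZ, MEF2C without E18-DZ, DES, HEY1 and HHIP without E21-DZ, HEYL without E16-DZ, E18-DZ, E21-DZ or E28-DZ, JAG1 without E21-ZZ, and MEOX2 without any 1 of the libraries except E16-ZZ and E28-ZZ. Across such fits their differences ran from 0.53 to 4.61 and from -1.12 to -0.63. Among the other settings, calls ended for MYH3, MEF2C, DES, JAG1, NKD1, SFRP2, HHIP and MEOX2 with DESeq2, TNNT1, MEF2C, HEYL, HHIP and MEOX2 at a mitochondrial limit of 5%, TNNI1, MYH3, MEF2C, DES, JAG1, NKD1 and SFRP2 with at least 2 PAX3 UMIs required, HEYL, RSPO3 and MEOX2 with marked doublets removed, MEOX2 with RLE size factors, and TNNT1, HEYL and SFRP2 without the E28 libraries.

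**Figure D5:**
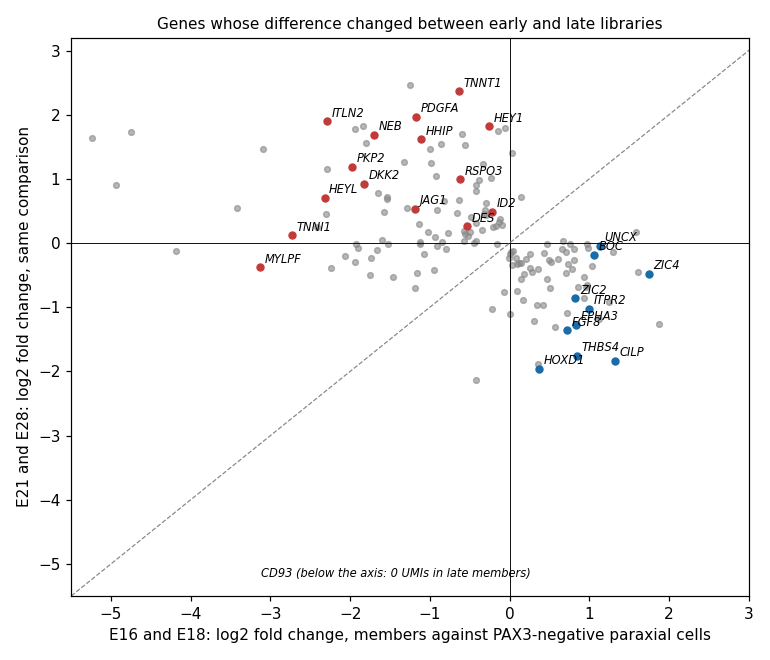
Each point is a gene whose difference between members and PAX3-negative paraxial cells changed between early and late libraries (166 genes): log2 fold change at E16 and E18 (x axis) against E21 and E28 (y axis), with equality as the dashed line. Named genes above the line (red, such as DKK2 at -1.82 and 0.92) moved towards members and those under it (blue, such as ZIC4 at 1.75 and -0.47) away from them. CILP was under the floor in every late library of members and CD93, with 0 UMIs there, lies beyond the axis, so that their positions are fitted values only.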

How the data were processed

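Droplet 3' RNA-seq was run on 8 pooled libraries, 1 for each of 4 stages and 2 breeds. The authors deposited raw UMI counts per gene and barcode, made with Cell Ranger (version 3.1.0 for E16 and 3.0.2 for the other stages, as recorded in the headers of the deposited counts) against Sscrofa11.1 with Ensembl release 98. The 21301 genes were read by identifier, 6455 had no symbol in the file, and 680 of these were given one from a table of gene names. Barcodes were filtered, members selected and comparison cells gated as stated in the report. Depth is given there per library. Intervals and floors cover counting error only.

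Counts were summed per library and kind of cell, each sum with at least 20 cells, and tested in edgeR 4.0.16 (R 4.3.3) with filterByExpr, TMM and the robust quasi-likelihood test, with Benjamini-Hochberg adjustment over all genes tested. Stage and breed entered 1 additive fit of the members. Comparisons of kinds of cell had the library as a block, and the late against early test was an interaction in such a fit. All 8 libraries entered these fits, except that the PAX7 comparison used the 4 libraries of E18 and E21, and none was imputed. Shares were compared by an exact permutation test. The tests were checked on simulated counts. There, known changes of moderate size were mostly found in the comparisons of kinds of cell, often missed between breeds and by PAX7 detection, and nearly all missed in the stage and late against early comparisons. These counts were drawn from 1 common mean per gene with a fixed spread, and only genes above 20 CPM were changed. The outcome is thus not the power of the tests on the real libraries. Alternatives were DESeq2 1.42.0, RLE size factors, no filter, removal of doublets marked by Scrublet (scanpy 1.11.5) at 0.8% per 1000 barcodes, a mitochondrial limit of 5%, at least 2 PAX3 UMIs, and fits without each library or without E28. Doublets were kept in the values reported, and 131 of 1139 members were marked. By library this ran from 3 of 89 in E16-ZZ to 30 of 113 in E21-DZ, with 8 of 34 in E28-DZ. Over all barcodes within the limits, 317 of 6297, 831 of 10194 and 1185 of 12173 were marked in these libraries.

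The members and gene lists were chosen with earlier results of these data known. Named genes had an adjusted p under 0.05, a mean of at least 20 CPM in the higher group and the same direction in every pair of libraries, up to 10 per direction, plus the members of the lists and the HOX genes. Some genes counted in the lists are not reported here by name.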

Additional observations from a re-analysis of the deposited data

Results flagged for a closer look

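E16-ZZ stood far from the other early libraries on 2 measures. Of its barcodes, 39.2% exceeded the mitochondrial limit, and erythroid genes made up 6925 CPM of its members. Chance alone marks about 1 in 20 such groups of 4 libraries.

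The difference between members and PAX3-negative paraxial cells changed between early and late libraries for 166 genes, in a test added after the data had been seen. The values that follow are late minus early differences of the log2 fold change, with the early and the late fold change after each where it is given. Upward shifts were 4.18 for ITLN2, an intelectin (-2.29 and 1.90), 3.39 for NEB, the muscle protein nebulin (-1.70 and 1.69), 3.16 for PKP2, the desmosome protein plakophilin 2 (-1.97 and 1.19), and 3.14 for PDGFA, a growth factor (-1.17 and 1.97). ITLN2 averaged 8.41 CPM in early and 4.86 in late members, against 38.8 and 1.06 in the comparison cells. PKP2 averaged 11.6 and 9.76 CPM in members, against 45.7 and 4.04. Neither late fold change passed (edgeR adjusted p = 0.165 and 0.1125). In members NEB averaged 3.42 CPM early and 30.0 late, and PDGFA 9.29 and 39.5. TNNT1 shifted by 2.999 (-0.63 and 2.37), TNNI1 by 2.85, MYLPF by 2.76 (-3.13 and -0.38) and DKK2 by 2.75. CD93, an endothelial receptor, had no UMI in late members, so its fitted shift of -6.95 is no bound, and its level averaged 9.60 CPM in early members against 29.9 in the comparison cells, and 16.0 in the late comparison cells. CILP, a matrix protein, stood at 2.18 and 2.90 CPM in the E21 members and 0 at E28, under the floor of 3 UMIs, so its fitted shift of -3.16 is no bound either. Other downward shifts were -2.60 for THBS4, a thrombospondin (0.85 and -1.75), -2.33 for HOXD1, -2.22 for ZIC4 (1.75 and -0.47), -2.11 for the ephrin receptor EPHA3, -2.08 for FGF8, which had 3 UMIs in each E21 library of members, and -2.02 for ITPR2, a calcium channel. With 1 library left out, the call was lost for TNNT1 without any 1 of the 8 libraries, for MYLPF without E18-DZ, for ITLN2 without E21-DZ and for CD93 without E21-ZZ or E21-DZ.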

How the results depend on the processing

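No paired analysis was possible by replicate number because each group of the labels holds 1 library. The library was already a block in the comparisons of kinds of cell, and the breed a term beside the stage. Each stage rests on 2 libraries of different breeds, and E28 on 41 and 34 members, in which 3 UMIs equal 14.5 and 21.2 CPM. Of 6581 values of single genes under another setting, 5492 kept direction and side of the threshold, 1085 kept the direction only, and 4 reversed: NKD1 for E21 against E18 with at least 2 PAX3 UMIs (0.047), EGFL7 (0.13) and TIE1 (0.25) against paraxial cells at a mitochondrial limit of 5%, and CDH1 against PAX1-positive cells with DESeq2 (0.51). The causes were not tested.

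The counts of called genes moved as follows. For E18 against E16 (302), DESeq2 gave 73, the 5% mitochondrial limit 94, at least 2 PAX3 UMIs 192, and leaving out 1 library 67 to 488. For E21 against E18 (669), these gave 273, 281, 313 and 325 to 845. For E28 against E21 (214), DESeq2 gave 130, the 5% limit 140 and leaving out 1 library 105 to 290, while too few cells had 2 PAX3 UMIs for a fit. For DZ against ZZ (2), DESeq2 gave 0, no filter 29, the 5% limit 7, at least 2 PAX3 UMIs 4, the data without E28 11 and leaving out 1 library 4 to 29. Against paraxial cells (549), DESeq2 gave 275, the 5% limit 176 and leaving out 1 library 344 to 531. Against PAX1-positive cells (695), the 5% limit gave 375 and leaving out 1 library 510 to 699. Against MYF5-positive cells (344), DESeq2 gave 206, no filter 573 and leaving out 1 library 227 to 376. For PAX7 detection (19), DESeq2 gave 0, no filter 31, doublet removal 11 and leaving out 1 library 6 to 29, and the 5% limit left too few cells. For late minus early (166), DESeq2 gave 71, the 5% limit 56, at least 2 PAX3 UMIs 110 and leaving out 1 library 102 to 185.

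The late minus early difference in member share was -0.320 points when thinned, -0.666 at the 5% limit, -0.811 without E28 and -1.68 without E16. None of these passed, and the last 2 could not, since 15 splits allow no exact permutation p below 0.133. Leaving out 1 library gave -1.48 to -1.09, each with an exact permutation p = 0.0571 over 35 splits, the smallest p these splits allow.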

Other observations

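The E18-DZ members were low in posterior HOX genes beside E18-ZZ. HOXC9 stood at 0 CPM in E18-DZ and 14.9 in E18-ZZ, HOXA9 at 0 and 12.6, HOXC8 at 3.13 and 43.9, HOXA7 at 4.69 and 42.0, and HOXB9 at 24.0 and 135. These genes were picked after their values were seen, and the difference between the 2 libraries has no replicate.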
